A study of Mus musculus with 4 samples.

Results

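Fndc3b, Babam2 and Spidr are long mouse genes that held groups of H3K27ac peaks inside their bodies in chondrocytes. The 3 genes, of 21887 protein-coding genes in the annotation used, were chosen from their peak numbers in these lists, so those numbers are a description with no test. Every row of either deposited peak list that overlapped a gene body with 10 kb on each side was taken. This gave 134 of 13130 peaks of the Cre list and 75 of 12873 peaks of the GFP list, or 209 of 26003 peaks in all. Fndc3b had 89 Cre and 52 GFP peaks, Babam2 had 27 Cre and 16 GFP peaks, and Spidr had 18 Cre and 7 GFP peaks. A window of 50 kb on each side would have given 91 Cre and 55 GFP peaks for Fndc3b, 30 Cre and 19 GFP peaks for Babam2, and 18 Cre and 8 GFP peaks for Spidr.

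The Cre culture held chondrocytes labelled hdac3-knockout that had received an adenovirus with Cre recombinase. The GFP culture held chondrocytes labelled wild-type that had received a GFP control adenovirus. Both came from strain C57Bl/6, and micromass culture, in which cells are plated as dense spots, is named for the Cre culture. The sources used here give neither the age nor the number of the mice, nor the Hdac3 allele or the time after transduction, and the share of cells that lost Hdac3 was not measured. Hdac3 itself had 0 Cre and 0 GFP peaks within 10 kb, which does not check the deletion. Each culture gave 1 H3K27ac library, and the 2 input libraries were not analysed here. With 1 library per culture there is no replicate check, and every interval below covers counting error only.

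H3K27ac is the acetylation of lysine 27 of histone H3, found at active promoters and enhancers. HDAC3 is a deacetylase that removes histone acetylation as part of the NCoR and SMRT corepressor complexes. Enhancers often lie in introns and can act on the gene that holds them or on a neighbour, so a cluster inside a gene need not serve that gene. FNDC3B is a fibronectin type III domain protein, known in mice as Fad104, that promotes adipocyte differentiation and restrains bone morphogenetic protein signalling in bone-forming cells. BABAM2 is a core subunit of BRCA1-A, a nuclear complex that acts at DNA breaks, and of BRISC, a deubiquitinating complex of the cytoplasm. SPIDR is a scaffold of homologous recombination that binds the helicase BLM.

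The Fndc3b and Babam2 promoters are shown because peaks lay close to both starts, and inside the window of Babam2. RefSeq sequences of GRCm38.p6, the build called mm10, run from 250 bases before to 50 bases after the start, and capitals mark bases under a Cre peak. The Fndc3b window is chr3:27710403-27710702 on the minus strand, and the Babam2 window is chr5:31697800-31698099 on the plus strand.
Fndc3b promoter: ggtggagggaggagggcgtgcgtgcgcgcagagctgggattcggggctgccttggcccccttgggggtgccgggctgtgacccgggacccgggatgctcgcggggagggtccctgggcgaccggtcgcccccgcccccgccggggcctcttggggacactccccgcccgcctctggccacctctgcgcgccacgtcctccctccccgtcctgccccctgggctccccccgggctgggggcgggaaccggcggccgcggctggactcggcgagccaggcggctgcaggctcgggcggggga
Babam2 promoter: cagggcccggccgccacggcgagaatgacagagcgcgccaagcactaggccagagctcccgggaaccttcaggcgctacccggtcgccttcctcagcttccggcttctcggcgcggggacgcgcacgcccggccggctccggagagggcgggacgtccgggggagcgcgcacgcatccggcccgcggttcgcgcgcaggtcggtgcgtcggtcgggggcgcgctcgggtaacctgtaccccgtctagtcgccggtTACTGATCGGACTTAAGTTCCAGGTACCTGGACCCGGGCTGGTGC
A Cre peak covered the last 45 of the 300 Babam2 bases, and no GFP peak covered any. Neither list had a peak on the 300 Fndc3b bases. G and C made up 79.7% of the Fndc3b window and 72.3% of the Babam2 window, against a median of 53.0% over 32544 promoters.

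Motifs were searched on both strands. The Babam2 window held 1 match to the ETS motif CCGGAA, which reads ttccgg on the printed strand, lies in the bases without a peak and overlaps no other motif searched. That motif was present in 14.98% of all promoters. Neither window held AP-1 TGANTCA, SOX ACAATNG, RUNX TGTGGT, TEAD GGAATG, CEBP TTGCNNAA or the NFI motif, which were present in 7.79%, 8.07%, 16.7%, 14.6%, 10.8% and 1.39% of promoters in that order. The Fndc3b window did not hold CCGGAA. These are letter matches within 300 bases and do not measure binding.

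The microRNA gene Mir3092 lies inside Fndc3b and under a Cre peak, so its hairpin is shown with the mature arms in capitals. The hairpin is at chr3:27584900-27584995 on the minus strand. In the mature arms, capitals mark the seed, bases 2 to 8.
Mir3092 hairpin: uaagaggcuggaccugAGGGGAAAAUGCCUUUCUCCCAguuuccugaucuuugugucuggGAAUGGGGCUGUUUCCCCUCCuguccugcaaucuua
mmu-miR-3092-5p: aGGGGAAAaugccuuucuccca
mmu-miR-3092-3p: gAAUGGGGcuguuuccccucc
The Cre peak chr3:27584860-27585012 covered the whole hairpin, was 153 bp wide and had 11 fragments at its summit. This summit pileup was solved for every peak from the authors' fold enrichment, here 5.98 over the expected pileup, and p-value. The nearest GFP peak lay 699 bp away, and within 1 kb of the hairpin each list had 2 peaks. The arms have different seeds. An acetylation peak over the hairpin does not measure the microRNA, and Mir3092 expression was not analysed here.

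Fndc3b (gene ID 72007, chr3:27416135-27711307, minus strand, 295.173 kb) carried 89 Cre peaks on 21143 bp and 52 GFP peaks on 13850 bp. Cre peaks were 63.1% of its peaks (exact 95% interval 54.6% to 71.1%), against 50.5% over the whole lists. By both lists together it ranked 2 of 21887 protein-coding genes, behind Wwp2, a ubiquitin ligase gene with 91 Cre and 95 GFP peaks. Among 2429 genes of at least 100 kb, its density of 28.2 Cre peaks per 100 kb ranked 2 and its density of 16.5 GFP peaks per 100 kb ranked 10.

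Peaks of Fndc3b were spread through the gene. When both lists were joined across gaps of up to 12500 bp and groups of at least 3 peaks were kept, 3 clusters formed, and every one of its 141 peaks lay in one. The cluster at the 5′ end, chr3:27552461-27711572, spanned 159.112 kb, reached to 53.8% of the gene and held 57 Cre and 37 GFP peaks. It ranked 3 by peaks among 2880 such clusters in the genome. The middle cluster, chr3:27453110-27534300, held 29 Cre and 13 GFP peaks over 81.191 kb, and the one near the 3′ end, chr3:27429938-27439601, held 3 Cre and 2 GFP peaks.

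**Figure D1:**
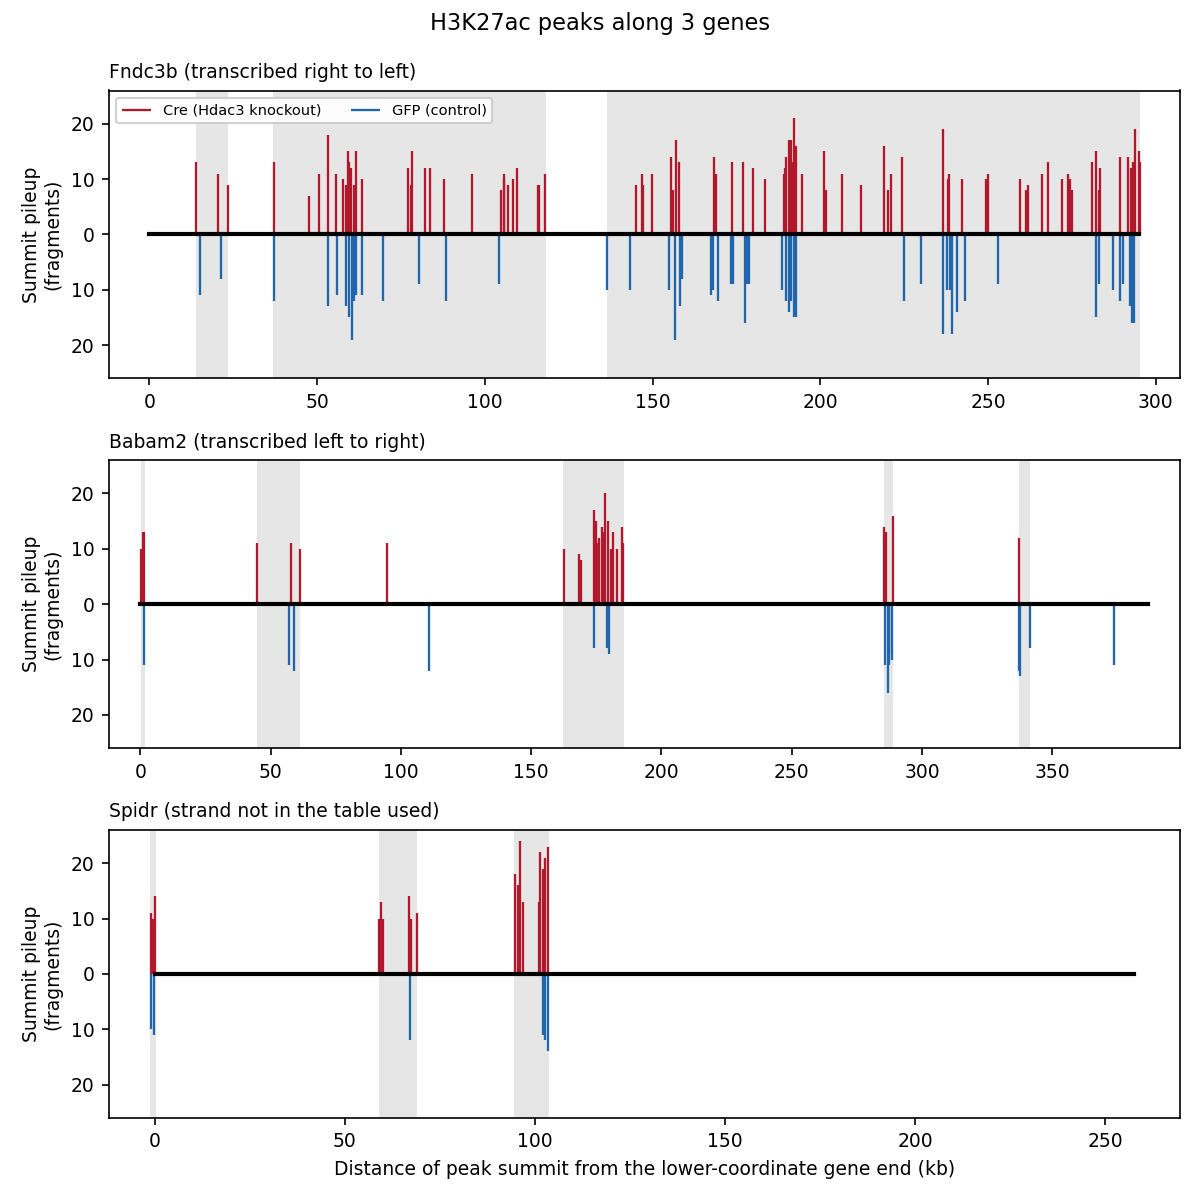
Summit pileup (fragments) of each peak by distance of its summit from the lower-coordinate gene end (kb), with Cre peaks drawn up and GFP peaks drawn down; the black line is the gene and grey bands are clusters of at least 3 peaks joined within 12500 bp. Fndc3b has 89 Cre and 52 GFP peaks along its length, 40 of 43 Babam2 peaks gather in 5 clusters, and Spidr has no peak beyond 40.3% of its length.

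Joining within 5 kb split Fndc3b into 13 clusters, whose balance between libraries differed. The one with most peaks, chr3:27583378-27610837, spanned 27.46 kb at 34.0% to 43.3% from the start and held 15 Cre and 14 GFP peaks, so both libraries marked it about equally. It holds Mir3092. The cluster chr3:27675530-27691372, at 6.75% to 12.1% from the start, held 9 Cre and 0 GFP peaks. Those 9 peaks had 8 to 13 fragments each with a median of 10, against a median of 12 over the Cre list. The cluster chr3:27652562-27659564, at 17.5% to 19.9% from the start, held 4 Cre and 6 GFP peaks, where the Cre peaks covered 734 bp against 1745 bp for the GFP peaks. The plot of peaks along the genes shows these stretches as runs of upward, paired and downward lines.

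Fndc3b was cut into 10 equal segments from its 5′ end, and Cre peaks outnumbered GFP peaks in 9 of them and equalled them in 1. Segment 1, at the start, had 16 Cre and 8 GFP peaks, segment 4 had 14 Cre and 9 GFP peaks, and segment 5 had 9 of each. Segment 7 had 10 Cre peaks and 1 GFP peak, the widest difference. The Cre surplus was therefore found along most of the gene, in uneven amounts.

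**Figure D2:**
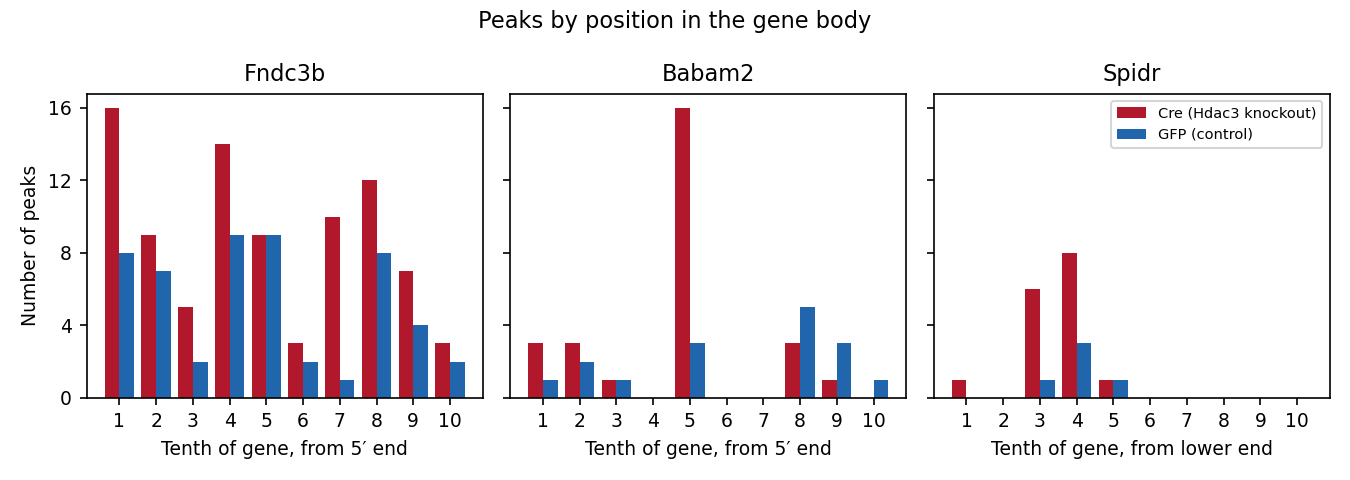
Number of peaks (vertical axis) in each of 10 equal segments of the gene body (horizontal axis), Cre bars left of GFP bars, counted from the 5′ end for Fndc3b and Babam2 and from the lower-coordinate end for Spidr. Fndc3b has peaks of both lists in all 10 segments, Babam2 has 16 Cre and 3 GFP peaks in segment 5, and Spidr has most of its peaks in segments 3 and 4.

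The highest summits of Fndc3b had 21 fragments (Cre) and 19 (GFP). The Cre maximum was 21 fragments at chr3:27608081-27608470, where the overlapping GFP peak had 15. The next Cre summits had 19 fragments, at chr3:27652562-27652736, where the GFP peak had 18, and at chr3:27709722-27709960, just inside the start, where the overlapping GFP peak had 16. The GFP maximum was 19 fragments and occurred at 2 sites. At chr3:27476329-27476552 the Cre peak had 12 fragments and the GFP peak 19, and at chr3:27572661-27573269 the Cre peak had 17 and the GFP peak 19.

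Only 2 one-library peaks of Fndc3b had a fold in the upper 10% of their own list. One was the Cre peak chr3:27634905-27635091 with 16 fragments, and the other was the GFP peak chr3:27655366-27655592 with 18. Of the Fndc3b peaks, 63 Cre peaks (70.8%) and 29 GFP peaks (55.8%) had no overlap of at least 1 bp with the other list. Over the whole lists 59.3% of Cre peaks and 58.6% of GFP peaks had none.

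Where Cre and GFP peaks of Fndc3b overlapped, their summits were similar. The 114 merged regions comprised 22 shared, 63 Cre and 29 GFP regions. In shared regions the Cre pileup had a median of 14.5 fragments (9 to 21) and the GFP pileup a median of 13.5 (10 to 19). Cre was higher in 12, GFP in 7, and 3 were equal, and the exact Poisson 95% intervals met in 22 of 22. The numbers of called peaks thus differed at Fndc3b, while no difference in height at a shared site was resolved at this depth. Shared regions are by definition sites where both libraries had a called peak. In the other regions the pileup is known only for the library with the peak. Whether a difference in height lies behind the difference in peak numbers was therefore not tested.

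**Figure D3:**
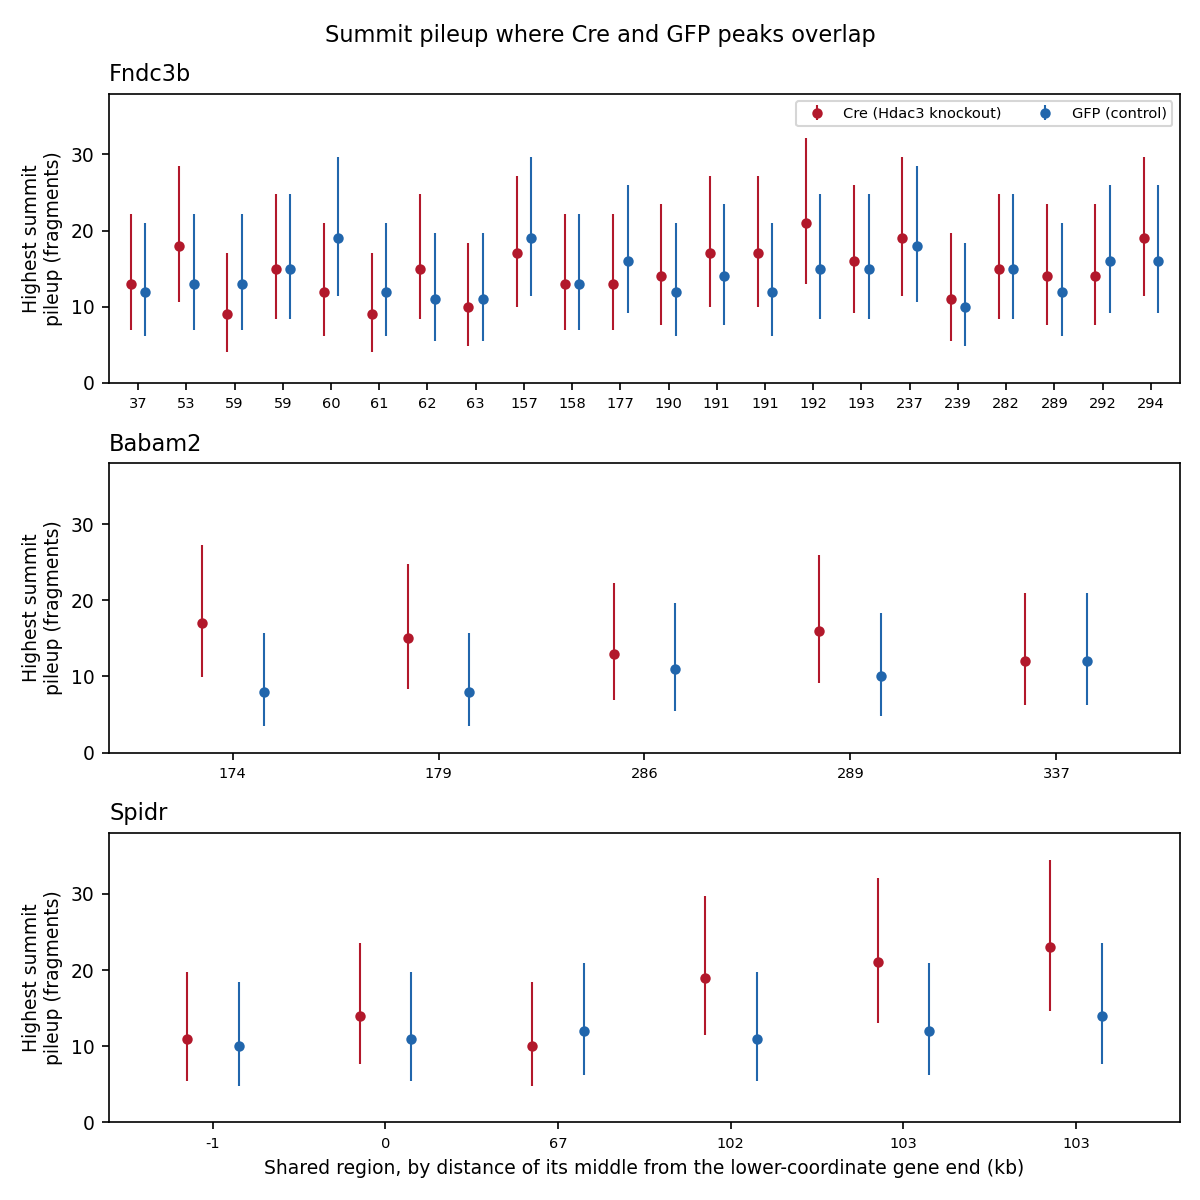
Highest summit pileup (fragments, vertical axis) in each region where Cre and GFP peaks overlap, Cre left of GFP, ordered by distance from the lower-coordinate gene end (kb); bars are exact Poisson 95% intervals. The intervals of the pair meet in 22 of 22 regions of Fndc3b, 5 of 5 of Babam2 and 6 of 6 of Spidr.

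Near the Fndc3b start, whose position in the promoter table is 27710452, both libraries had peaks within 1 kb. The nearest on the gene side were the Cre peak at chr3:27709722-27709960 and the GFP peak at chr3:27709368-27710151, and 2 Cre peaks lay on the other side, at chr3:27711118-27711264 with 15 fragments and chr3:27711418-27711572 with 13. Because the annotated gene runs on to 27711307, the window of 1 kb around the gene ends, which defines a boundary peak here, caught Cre peaks and no GFP peak. Of all protein-coding genes, 13.5% had a Cre boundary peak and 14% a GFP boundary peak. Both libraries thus had acetylation close to the start, whatever the count by gene ends gives.

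The surroundings of Fndc3b were sparse. The nearest protein-coding genes below it were Ghsr, the ghrelin receptor gene, at 36.9 kb, Tnfsf10, encoding the death ligand TRAIL, at 76.5 kb, and Nceh1, a cholesterol ester hydrolase gene, at 171 kb. None of them had a peak, and the 500 kb below Fndc3b held 0 Cre and 0 GFP peaks. Above it, past the 5′ end, the 500 kb held 17 Cre and 18 GFP peaks. Tmem212, a transmembrane protein gene 155 kb away, had 4 Cre and 2 GFP peaks within 10 kb and none at its ends. Pld1, encoding phospholipase D1, lay 227 kb away and had boundary peaks in both lists, 2 Cre and 1 GFP, each list reaching 12 fragments. Pld1 was the only one of 7 protein-coding genes within 500 kb with a boundary peak in either list. Of all protein-coding genes, 9.26% had boundary peaks in both lists. The small nuclear RNA gene LOC115489812, 197 kb above, had a boundary peak in the GFP list alone, with 10 fragments. The noncoding RNA gene Gm32738, inside Fndc3b, had no peak on its body, and its neighbourhood shares 10 Cre and 7 GFP peaks of Fndc3b. Distance says which gene is near and does not assign a cluster to it.

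Babam2 (gene ID 107976, chr5:31697978-32084950, plus strand, 386.973 kb) had 27 Cre peaks on 8217 bp and 16 GFP peaks on 3247 bp. The Cre share was 62.8% of its peaks (46.7% to 77.0%) and 71.7% of the covered length. It ranked 39 of 21887 by both lists. Of its peaks, 22 Cre peaks (81.5%) and 11 GFP peaks (68.75%) had no overlap with the other list, against 59.3% of Cre peaks and 58.6% of GFP peaks over the whole lists. Of its 43 peaks, 40 lay in 5 clusters, and 3 of 10 equal segments of the gene had 0 Cre and 0 GFP peaks.

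The Cre surplus of Babam2 sat in 1 cluster. This cluster, chr5:31860337-31883626, spanned 23.29 kb at 42.0% to 48.0% of the gene from its start and held 16 Cre and 3 GFP peaks. Cre peaks covered 5346 bp of it and GFP peaks 594 bp, and the Cre share of its peaks was 84.2% (60.4% to 96.6%). The remaining 11 Cre and 13 GFP peaks of the gene were close to balance. Since the cluster was singled out by its own counts, this interval is descriptive.

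Within that cluster the Cre summits reached 8 to 20 fragments with a median between 12 and 13, and the 3 GFP summits had 8, 8 and 9 fragments. The highest Cre peak, chr5:31875923-31876615, was 693 bp wide with 20 fragments and had no overlapping GFP peak. The next, chr5:31872109-31872438, had 17 fragments, and the GFP peak overlapping it had 8. A wide Cre peak at chr5:31877094-31877648 had 15 fragments and also overlapped a GFP peak with 8. These 2 overlaps were the widest gaps in pileup among the shared regions of Babam2, and their Poisson intervals still met.

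**Figure D4:**
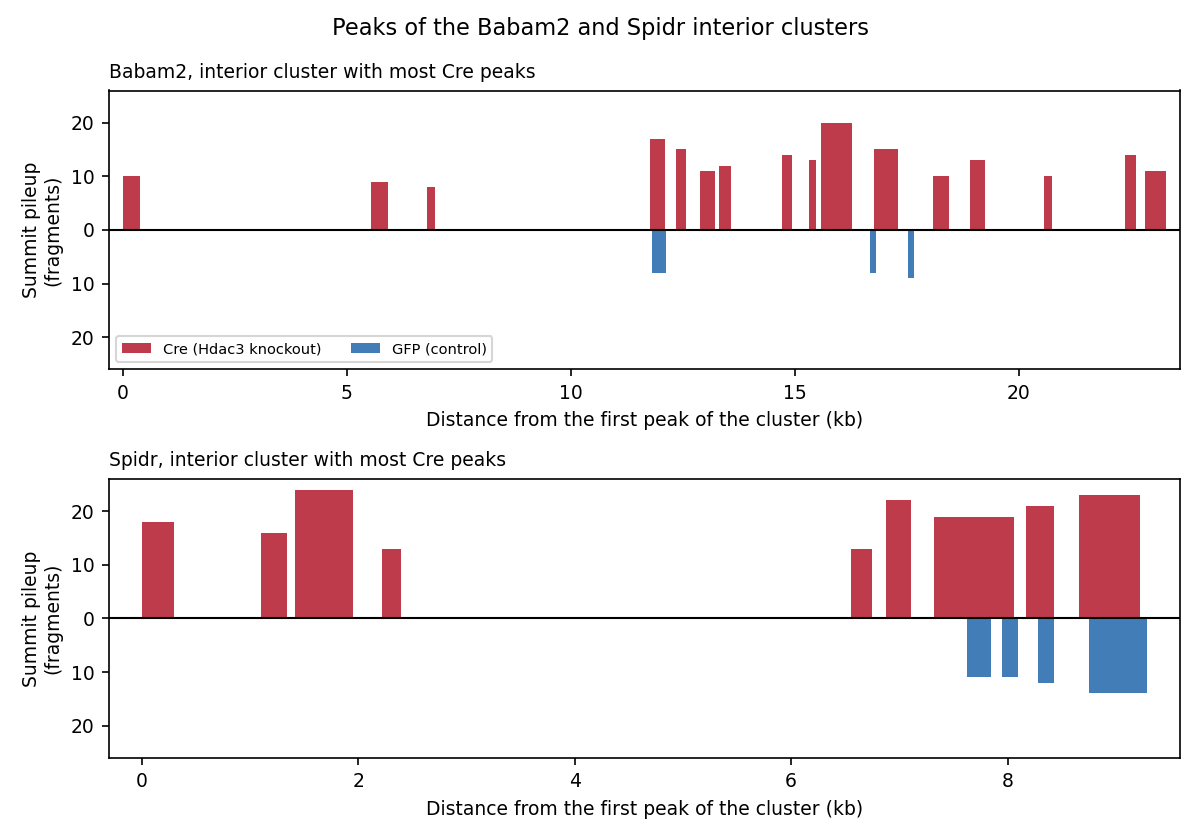
Peaks of the interior clusters with most Cre peaks in Babam2 and in Spidr, drawn from peak start to peak end by distance from the first peak (kb, horizontal axis), with height at the summit pileup (fragments, vertical axis), Cre up and GFP down. Babam2 has 16 Cre peaks against 3 GFP peaks of 8 to 9 fragments, and Spidr has 9 Cre peaks along the cluster against 4 GFP peaks in its last stretch.

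The other Babam2 clusters were small and went both ways. At the start, 3 Cre peaks with 10, 13 and 13 fragments and 1 GFP peak with 11 fragments lay within 1.506 kb. At 11.5% to 15.8% of the gene there were 3 Cre and 2 GFP peaks. The cluster chr5:31983270-31987035, at 73.7% to 74.7%, held 3 Cre and 5 GFP peaks that covered 1289 bp (Cre) and 1241 bp (GFP), and both lists reached 16 fragments there. The GFP summit of 16, at chr5:31984756-31985077, was the highest GFP peak of the gene and overlapped no Cre peak. This cluster lies inside Gm52770, a noncoding RNA gene on the opposite strand. At 87.1% to 88.3% there were 1 Cre and 3 GFP peaks, where a GFP peak at chr5:32035689-32035861 had 13 fragments.

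Expected pileup, the number of fragments the authors' caller expected at a summit, moved with the library at Babam2. It was above the list's lowest common level, the genome background (1.01 for Cre, 0.949 for GFP), at 24 of 27 Cre peaks (88.9%, 70.8% to 97.6%). The same held for 3 of 16 GFP peaks (18.75%, 4.05% to 45.6%). Over the whole lists these shares were 43.2% of Cre peaks and 29.9% of GFP peaks. In the cluster with 16 Cre peaks it held for 15 of them and for 1 of the 3 GFP peaks. Its part in the peak numbers was not tested.

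On the lower side, Rbks, the ribokinase gene, lies 0.328 kb from Babam2 and is read in the opposite direction. The Cre peak at the Babam2 start, chr5:31698055-31698241, therefore counted as a boundary peak of both genes, and the GFP list had no boundary peak at either. The first GFP peak inside Babam2, with 11 fragments, had its summit 1.47 kb from the lower gene end, just outside the 1 kb window. Mrpl33, encoding a mitochondrial ribosomal protein, and Slc4a1ap, encoding kanadaptin, lay 75.3 kb and 136 kb below and had no boundary peak in either list. Of 20 protein-coding genes within 500 kb, both lists marked a boundary of 4, against 9.26% of all protein-coding genes. These were Zfp513, a zinc finger gene, Ppm1g and Ppp1cb, both protein phosphatase genes, and Fosl2. Zfp513 and Ppm1g adjoin, so a peak near their common boundary counts for both genes. Another 3, Rbks, Fndc4 and Ift172, a ciliary transport gene, had a Cre boundary peak and no GFP one, and Fndc4 and Ift172 share theirs, a peak with 15 fragments. None had one in the GFP list alone. Among noncoding RNA genes, Gm38424, 34.5 kb below, had 2 Cre and 1 GFP boundary peaks, and AI839979, 127 kb below, had 1 in the GFP list alone.

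Fosl2, encoding the AP-1 subunit Fra-2, which supports cartilage matrix production in mice, was the nearest protein-coding gene above Babam2, at 51.5 kb. It had 10 Cre and 10 GFP peaks within 10 kb, with the Cre peaks on 3825 bp and the GFP peaks on 2103 bp. At its ends there were 3 Cre peaks of up to 15 fragments and 2 GFP peaks of up to 13. Its start lies 253 kb from the cluster with 16 Cre peaks and 149 kb from the cluster at 73.7% to 74.7%. Beyond it, Plb1, a phospholipase gene at 148 kb, had 0 Cre and 2 GFP peaks within 10 kb, and Ppp1cb, at 374 kb, had 2 boundary peaks in each list. The noncoding genes Gm40277 and Gm51292, within 10 kb above Babam2, had no peak. The 500 kb below Babam2 had 19 Cre and 9 GFP peaks and the 500 kb above had 13 Cre and 14 GFP peaks.

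Spidr (gene ID 224008, chr16:15889224-16146851, 257.628 kb) had 18 Cre peaks on 5308 bp and 7 GFP peaks on 1514 bp. Positions are given from the lower-coordinate end. The Cre share was 72.0% of the peaks (50.6% to 87.9%) and 77.8% of the covered length, and Spidr ranked 116 of 21887 by both lists. The interval counts neighbouring peaks as separate. With peaks within 500 bp merged, 7 Cre and 4 GFP peaks remained, a Cre share of 63.6% (30.8% to 89.1%). Of 18 Cre peaks, 12 (66.7%) overlapped no GFP peak, whereas 0 of 7 GFP peaks lacked an overlap with a Cre peak. Over the whole lists 59.3% of Cre peaks and 58.6% of GFP peaks lacked one. Of its 18 merged regions, 6 were shared, 12 were Cre and 0 were GFP, so the GFP list marked a subset of the sites in the Cre list.

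The main Spidr cluster, chr16:15983674-15992964, spanned 9.291 kb at 36.7% to 40.3% of the gene and held 9 Cre and 4 GFP peaks on 3242 bp and 1060 bp. The Cre summits there had 13 to 24 fragments with a median of 19, and the GFP summits had 11, 11, 12 and 14 fragments. The groups overlap only at their edges, 13 against 14. The 3 highest Cre peaks were chr16:15985095-15985628 with 24 fragments, chr16:15992332-15992896 with 23 and chr16:15990548-15990784 with 22. The first and the third overlapped no GFP peak, and a GFP peak with 14 fragments, the highest of the gene, overlapped the second.

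Spidr had 5 of 18 Cre peaks with a fold in the upper 10% of the Cre list, at 9.66 to 11.8, and all 5 lay in this cluster. None of 7 GFP peaks was in the upper 10% of the GFP list. The smallest width of that list, 144 bp, was found in 4 of the 7 (57.1%), against 16.9% of the whole list. The smallest width of the Cre list, 147 bp, was found in 3 of 18 Cre peaks (16.7%), against 17.8% of the whole list. In its last stretch the cluster had 3 shared regions, with Cre pileups of 19, 21 and 23 fragments and GFP pileups of 11, 12 and 14. Cre was higher in each, and the Poisson intervals met in each. Intervals that meet do not show equal heights, so a difference at a single region was not resolved at this depth. Expected pileup was above the genome background, again counting even a small excess, at 14 of 18 Cre peaks and 4 of 7 GFP peaks of Spidr. In this cluster it was above at 9 of 9 Cre and 3 of 4 GFP peaks. The part of expected pileup in the peak numbers was not tested.

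The second interior cluster of Spidr, chr16:15948104-15958224, at 22.9% to 26.8% of the gene, held 6 Cre peaks of 10 to 14 fragments and 1 GFP peak of 12. No peak of either list lay beyond 40.3% of the gene, so its upper end and the pseudogenes Gm10121 and Gm18334 inside it had none.

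The last cluster lay across the lower end of Spidr, inside Cebpd, which overlaps that end (chr16:15887286-15889545). Cebpd encodes C/EBP delta, a transcription factor induced by inflammatory signals. Its 3 Cre peaks had 10, 11 and 14 fragments and its 2 GFP peaks had 10 and 11, and both GFP peaks overlapped Cre peaks. These peaks are counted for both genes. Cebpd lies 94.1 kb from the main Spidr cluster and 58.6 kb from the second.

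Among 9 protein-coding genes within 500 kb of Spidr, Cebpd alone had boundary peaks in both lists, against 9.26% of all protein-coding genes. Mzt2, a gene of the microtubule-nucleating complex 25.9 kb below, had a boundary peak of 9 fragments in the GFP list alone, which is also counted for the adjoining noncoding RNA gene Gm41425. Prkdc, encoding the catalytic subunit of DNA-dependent protein kinase, at 47.0 kb, and Mcm4, a replicative helicase gene, at 252 kb, had none. Above Spidr, Pkp2, a desmosome gene at 66.5 kb, had no peak. Yars2, a mitochondrial tRNA synthetase gene at 156 kb, had a boundary peak of 21 fragments in the GFP list alone, and Dnm1l, a mitochondrial fission gene at 165 kb, had no boundary peak. The 500 kb below Spidr held 1 Cre and 3 GFP peaks and the 500 kb above held 0 Cre peaks and 1 GFP peak. The interior clusters of Spidr were therefore the largest gathering of peaks within that distance.

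The balance of the genes was set beside all 180 protein-coding genes with at least 20 peaks. Cre peaks were at least 1.5 times GFP peaks in 27 of them (15%), and GFP peaks were at least 1.5 times Cre peaks in 32 (17.8%). The 3 genes had Cre to GFP ratios of 1.71 for Fndc3b, 1.69 for Babam2 and 2.57 for Spidr. By Cre share they ranked 19, 20 and 7 of 180, where the median share was 48.8% and the middle 50% of genes ran from 42.7% to 54.7%. Genes with a surplus in the GFP list were thus no rarer than genes with one in the Cre list, and the 3 genes were chosen from these same counts.

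**Figure D5:**
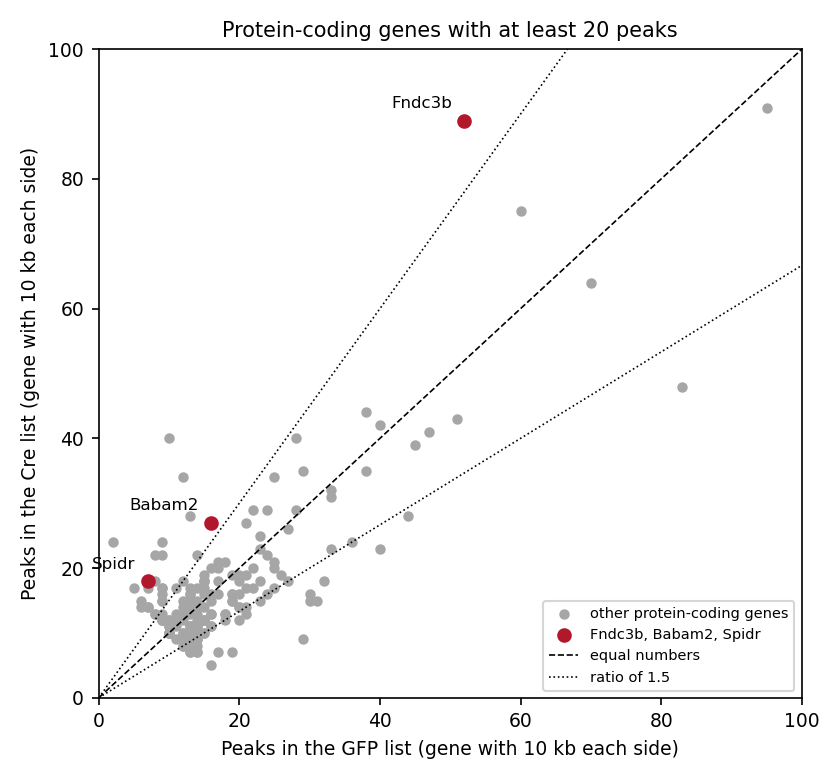
Peaks in the Cre list (vertical axis) against peaks in the GFP list (horizontal axis) for 180 protein-coding genes with at least 20 peaks, each point a gene with 10 kb on each side; the dashed line marks equal numbers and the dotted lines a ratio of 1.5. Fndc3b, Babam2 and Spidr lie above the upper dotted line, and 24 other genes lie on or above it, and 32 genes lie on or below the lower one.

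Overlap between libraries depended on summit pileup. Of the Cre peaks in the 3 genes, 9.52% of those with 7 to 9 fragments overlapped a GFP peak, as did 14.3% at 10 to 12, 36.8% at 13 to 15 and 68.4% at 16 or more. The whole Cre list had 18.5%, 29.7%, 48.9% and 74.9% in these classes. For GFP peaks the 3 genes had 11.8%, 44.7%, 83.3% and 75.0%, against 22.2%, 31.3%, 49.8% and 76.1% in the whole GFP list. Of the peaks in the 3 genes, 77 of 134 Cre peaks (57.5%) and 55 of 75 GFP peaks (73.3%) had 12 fragments or fewer, against 57.9% of the whole Cre list and 60.3% of the whole GFP list. The lowest pileup called was 7 fragments in each list.

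Genes that work with the 3 genes were set beside all protein-coding genes, of which 26% had a Cre peak and 26% a GFP peak in the gene with 10 kb on each side. Of 9 genes of the BRCA1-A and BRISC complexes, 4 had a Cre peak and 6 had a GFP peak. Both counts include Babam2 itself, which was chosen from its peak numbers. Their median was 0 Cre peaks and 1 GFP peak, against 0 in both lists over all protein-coding genes. Boundary peaks were in both lists at Brca1, the ubiquitin ligase subunit, and at Shmt2, the serine hydroxymethyltransferase that binds BRISC. Babam2 had them from the Cre culture only, where a GFP peak of 11 fragments lay just outside the 1 kb window. Boundary peaks came from the GFP culture only at Uimc1, the ubiquitin-binding subunit of BRCA1-A.

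Of 13 matched homologous recombination genes, 4 had boundary peaks in both lists, namely Swi5 and Sfr1, whose products form a complex that aids strand exchange, the BLM partner Rmi1, and Spidr by way of its end in Cebpd. Of all protein-coding genes, 9.26% had boundary peaks in both lists, and the 4 genes here include Spidr, which was chosen from its peak numbers. Rmi2, another BLM partner, had one in the Cre list alone, and Xrcc3, a recombination mediator gene, in the GFP list alone. The median was 0 Cre peaks and 1 GFP peak. These genes together had 28 Cre and 18 GFP peaks, of which Spidr gave 18 and 7.

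Of 11 genes of the Fndc family, 5 had a Cre peak and 3 a GFP peak, against 26% of all protein-coding genes for each list, and the median was 0 in both lists. Fndc3b gave 89 of 94 Cre and 52 of 54 GFP peaks. Fndc3a, the closest paralog of Fndc3b, had 2 Cre peaks and 1 GFP peak. Fndc3b and Fndc4 had Cre boundary peaks without GFP ones, and no other member had a boundary peak. At Fndc3b this count depends on the annotated gene end, since a GFP peak lay within 1 kb of the start in the promoter table.

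Marker genes matched the labelled cell type. All 13 chondrocyte markers had peaks in both lists, 128 Cre and 153 GFP peaks in all, with a Cre boundary peak at 11 and a GFP boundary peak at 13. No endothelial, muscle or adipocyte marker had a peak in either list, and 1 of 4 osteoblast markers, Sp7, did in both. Of 5 leukocyte markers 1, Cd68, had peaks, 0 Cre and 3 GFP. The lists had similar median widths, 194 bp (Cre) and 198 bp (GFP), and the same median pileup of 12 fragments. In bulk chromatin, a larger share of cells with the mark and more of the mark per cell cannot be told apart.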

How the data were processed

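H3K27ac was measured by chromatin immunoprecipitation and sequencing in 1 Cre and 1 GFP library. Tools named in the submitters' processing notes are BWA, Picard, SICER and bcl2fastq 1.8.4, with mm10 as the build. The deposited lists have the MACS2 column layout, 1 list per library; the sources used here state no caller settings and no control library. In the deposited lists the score equals the whole part of 10 times the −log10 q-value. The authors' fold enrichment is the ratio of observed to expected pileup at the summit with 1 added to each, and it was used here within its own list only. From the deposited fold and −log10 p-value, the summit pileup was solved with a Poisson tail, and 100% of peaks gave a single whole number within 0.001. Total read numbers are unknown. The background expected pileup, 1.01 for Cre and 0.949 for GFP, gives a ratio of 1.06. It was not adjusted for fragment length, so it is only a rough guide to depth.

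Overlap was at least 1 bp, clusters joined peaks within 12500 bp, and a boundary peak lay within 1 kb of either gene end. Genes and sequences came from RefSeq GRCm38.p6, and 2 of the 3 genes matched the promoter table. Intervals are exact Clopper-Pearson or Poisson 95% intervals. Named genes were the 3 genes, the 3 nearest protein-coding genes on each side, genes inside or overlapping, genes within 500 kb with a boundary peak, list members with one, the 3 highest peaks of each list, and one-library peaks with a fold in the upper 10% of their list. Wwp2, Fndc3a, Sp7, Cd68 and the peaks of the 5 kb clusters were named after their values were seen. The genes and lists were chosen with earlier results of these data known. Some genes of the homologous recombination list are not reported here. The planned motif count on peaks was not run, as no genome was used here. Pileup recovery and clustering were tested on simulated data. Python 3.11.15, pandas 2.3.3, numpy 2.4.6, scipy 1.17.1 and matplotlib 3.10.9 were used.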

Additional observations from a re-analysis of the deposited data

How the results depend on the processing

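Cre peaks were over 50% of the peaks of each gene in 24 of 24 alternatives, from 57.7% to 70.0% for Fndc3b, 55.2% to 83.3% for Babam2 and 63.6% to 100% for Spidr. The alternatives reuse the counts from which the genes were chosen, so they do not test the surplus. For Babam2 the exact interval included 50% at every setting. With peaks within 500 bp merged, the intervals were 51.3% to 71.2% for Fndc3b, 35.7% to 73.6% for Babam2 and 30.8% to 89.1% for Spidr. Of 66 alternatives over shares and cluster numbers, 48 stayed near the reported value and 18 moved. A share stayed if it lay in the exact interval of the reported share. A cluster number has no interval and stayed if it was within a set ratio of the reported number. The Cre share moved to 83.3% for Babam2 and 100% for Spidr at a summit pileup of at least 15, and for Spidr to 100% where −log10 q reached 10 and 88.9% with the top 5000 peaks of each list. The Fndc3b clusters numbered 13 when joined within 5 kb and 1 within 25 kb, against 3. The share of peaks overlapping the other list was 34.8% for Fndc3b, 23.3% for Babam2 and 52.0% for Spidr. With a peak of the other list within 1 kb it was 63.1% for Fndc3b and 55.8% for Babam2, and with overlap over 50% of both peaks 18.4% and 4.65%. At a pileup of at least 15 it was 53.8% for Fndc3b, 0% for Babam2 and 0% for Spidr. Both lists were filtered first, which left 5 Cre peaks and 1 GFP peak at Babam2. At Spidr it left 7 Cre and 0 GFP peaks, so no overlap was possible there. Where −log10 q reached 10 the share was 20% for Fndc3b, 0% for Babam2 and 0% for Spidr, where 5 Cre and 0 GFP peaks were left. Where −log10 q reached 5 the share was 8% for Babam2, and with the top 5000 peaks it was 22.2% for Spidr. The stricter thresholds leave fewer peaks, and beyond that the cause was not tested. The setting that kept summits at least 10 kb inside both gene ends was chosen after seeing the data. No paired analysis was possible because each group has 1 library, and leaving out a replicate was not possible for the same reason. Depth limits single regions: no pair of shared summits had intervals that did not meet. At Babam2 the Cre summit was higher in 4 of 5 shared regions and equal in 1, with medians of 15 (Cre) and 10 (GFP). At Spidr it was higher in 5 of 6 and lower in 1, with medians of 16.5 (Cre) and 11.5 (GFP). These directions were not tested.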
